A study of Mus musculus with 12 samples.

Results

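The 40 genes described here encode collagens, other proteins of the extracellular matrix, enzymes that crosslink or cut it, and surface, cytoskeletal and transcription factor markers of fibroblasts. They were taken by name from a list of mouse symbols, not by a threshold on measured values. The list was chosen with earlier results of these data known, which the comparisons with all genes do not correct for. All 40 were found among the 55421 gene identifiers of the count table, and all 40 passed the filter on low counts that left 17394 genes for testing. The table holds RNA sequencing counts for 12 libraries of mouse small intestine, in 3 groups of 4. WT libraries were labelled wild type, with no Cre or floxed allele named, day 7 (3 male, 1 female). Apc libraries carried VilCreER, a tamoxifen-activated Cre recombinase driven by the villin promoter, and Apcfl/fl, day 4 (3 male, 1 female). Apc Eif3h libraries carried VilCreER, Apc fl/fl and Eif3h fl/fl, day 4 (4 male). The treatment text, given for every sample, names 2 tamoxifen injections of 80 mg/kg spaced 24 hours and a harvest at 7 days, so the day differs between the texts for 8 libraries, and genotype and labelled day cannot be told apart in comparisons with WT. The villin promoter is active in gut epithelium, so the fibroblasts that make most matrix are not its target cells. Apc restrains Wnt signalling by keeping beta-catenin low, and Eif3h encodes a subunit of eIF3, a complex that helps ribosomes start translation. The labels do not state the age of the mice, the intestinal segment, the layers taken, or if each replicate is its own animal; p-values therefore reflect only the variation among these libraries, some of which may be technical.

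The intestinal lamina propria and submucosa are held together by a matrix that resident fibroblasts secrete. Type I and III collagen fibrils give tensile strength, type IV collagen sheets underlie the epithelium and vessels, and type VI collagen microfibrils link cells to the fibrils. Fibroblasts close to the crypts and villi express the PDGF receptor Pdgfra and the hedgehog effector Gli1 and send growth signals to the epithelium, while fibroblasts around vessels express Cd34 and Pi16. Cd34 is also used below as a marker of crypt trophocytes, which are fibroblasts at the crypts. Several of these genes are also used by other cells: Col4a1, Col4a2, Sparc and Cd34 by endothelium, Pdgfrb by pericytes, Vim by leukocytes and Thy1 by T cells.

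Library totals were 10483112 to 21298301 counts. Eif3h, the targeted gene, lay at 126 to 142 CPM (counts scaled to 1000000 per library after correction by the trimmed mean of M values, TMM) in the WT libraries, between 158 and 175 in the Apc libraries and between 25.9 and 54.6 in the Apc Eif3h libraries. A whole-gene count of Apc does not check the loss of a floxed exon and was not used. The tissue label was checked on 12 epithelial markers, none of which was at 0: their summed CPM was 16897 to 23125 (WT), 11527 to 16036 (Apc) and 12296 to 17403 (Apc Eif3h). Libraries within a group differed in their fibroblast and matrix genes. WT replicate 1 was the highest WT library for 30 of the 40 genes and WT replicate 3 the lowest for 25, while Apc replicate 4 was the highest Apc library for 24 and Apc replicate 1 the lowest for 27. Apc Eif3h replicate 2 stood apart by leukocyte markers (634 CPM summed over 10 markers, against 145 to 154 in the other 3). Results that change without one of these libraries are given with that value.

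Summed over the 40 genes, levels were lowest in Apc Eif3h. In order of replicate, the sums were 4945, 3906, 2726 and 3043 CPM (WT), 2509.7, 2914, 3004 and 3599 CPM (Apc) and 2337, 2277, 2007 and 2060.0 CPM (Apc Eif3h). Every Apc Eif3h library was below every Apc and every WT library, whereas 3 of the 4 Apc libraries lay within the range of WT and Apc replicate 1 lay below it. The mean share of raw counts (± SD, n = 4) held by the genes was 0.333% ± 0.104 for WT, 0.319% ± 0.0507 for Apc and 0.226% ± 0.0247 for Apc Eif3h. By these shares, which take no TMM factor, Apc Eif3h stayed below every Apc library but not below WT: WT replicate 3 held 0.234%, under Apc Eif3h replicates 1 and 2 (0.246% each). These levels are relative to all counts of a library of bulk tissue, so they do not by themselves show a change in fibroblasts. Fewer fibroblasts, less matrix RNA per fibroblast and another make-up of the tissue taken cannot be told apart. The spread between libraries was widest in WT, with a median coefficient of variation over the 40 genes of 28.8%, against 16.2% in Apc and 15.1% in Apc Eif3h.

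**Figure D1:**
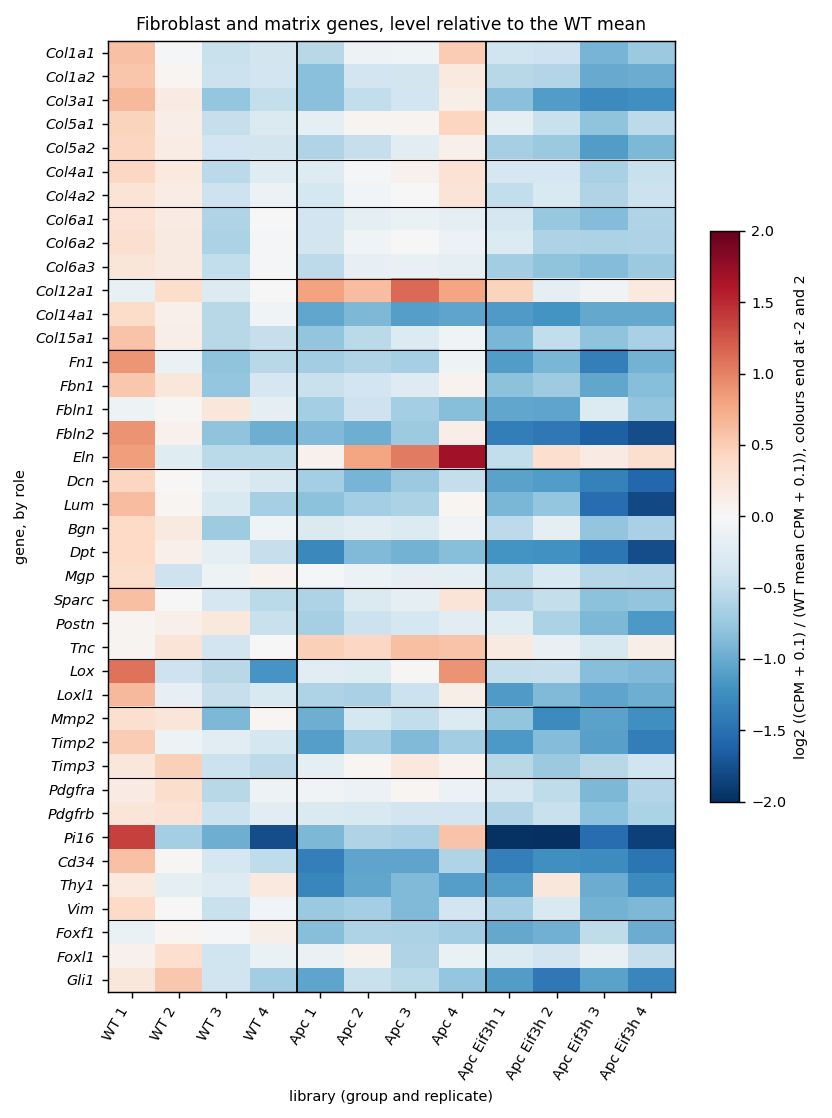
Each cell is the log2 ratio of 1 library's CPM to the WT mean of that gene, after adding 0.1 to both; columns are the 12 libraries by group and replicate, rows the 40 genes in blocks by role, red above and blue below the WT mean. Most rows turn blue towards Apc Eif3h, while Col12a1, Tnc and Eln are red in Apc, and WT replicate 1 and Apc replicate 4 are redder than their groups.

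In Apc against WT, 3 of the 40 genes rose (Col12a1, Tnc and Eln) and 10 fell (Col14a1, Fbln1, Dcn, Dpt, Timp2, Cd34, Thy1, Vim, Foxf1 and Gli1) at an adjusted p below 0.05, by edgeR's quasi-likelihood test with Benjamini-Hochberg adjustment over all 17394 genes. Over all genes tested 27.7% rose and 24.1% fell (51.8% in all), so the share of these genes that fell (25%) was near the background and the share that rose (7.50%) below it. Their median log2 fold change was -0.28, against -0.0099 for all genes. Apc and WT libraries did not overlap for 2 higher and 8 lower genes of the 40, patterns that 26.7% and 22% of all genes showed. The median was -0.057 without WT replicate 1, -0.45 without Apc replicate 4, -0.42 without WT replicate 3 and -0.061 with library totals as the only scaling, which moved the median of all genes to 0.22 and the share of calls that were higher from 53.5% to 74.02%. The number that fell was 15 without WT replicate 3. The adjusted p under such a setting stands in parentheses after it, here and for each gene: without WT replicate 3, Col6a3 (0.00992), Bgn (0.0461), Col6a1 (0.0276), Mmp2 (0.00438) and Pdgfrb (0.0114) were lower, and without WT replicate 1 Lox was higher (0.0345).

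In Apc Eif3h against Apc, the comparison matched for labelled day, 3 of the 40 genes fell (Col6a3, Col12a1 and Tnc) and 0 rose, where 2.78% of all genes fell and 4.27% rose (7.05% in all). By edgeR none was higher at an unadjusted p below 0.05 either (0), and by DESeq2 the count was 0 higher and 7 lower. The log2 fold change was below 0 for 39 of the 40, with Thy1 the exception, against 50.2% of all genes, and the median was -0.50 against -0.0019. Every Apc Eif3h library was below every Apc library for 18 of the 40, a pattern that 7.26% of all genes showed, and the reverse held for 0 (background 7.89%). At an unadjusted p below 0.05, 24 were lower, against 11% of all genes. None of the 3 calls held in every alternative. The count of lower genes was 0 without Apc replicate 3, without Apc Eif3h replicate 2 or in male libraries only, and 1 without Apc replicate 2, without Apc replicate 4 or without Apc Eif3h replicate 3. It was 6 without WT replicate 1, 5 without WT replicate 3, 5 with sex as a covariate and 7 when the WT libraries were not fitted. With library totals only, 1 gene fell, and higher genes made up 49.8% of all calls in place of 60.6%.

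Against WT, 31 of the 40 genes fell in Apc Eif3h and 0 rose (0 at an unadjusted p below 0.05 by edgeR, and 0 higher and 35 lower by DESeq2). This is 77.5% lower, where 28.1% of all genes fell and 29.8% rose (57.8% in all). The median log2 fold change was -0.70 against -0.029 for all genes, and the groups did not overlap for 17 of the 40 (background 20.7%; the reverse held for 0, background 26.9%). The count of lower genes was 23 without WT replicate 1 and 18 with library totals only, a scaling that moved the median of all genes to 0.17 and the share of calls that were higher from 51.5% to 67.5%. The 3 comparisons share libraries and are not independent. By group mean, 32 of the 40 genes were ordered WT above Apc above Apc Eif3h, an order held by 25.7% of the genes tested. Another 7 of the 40 were highest in Apc, as were 24.4% of the genes tested.

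**Figure D2:**
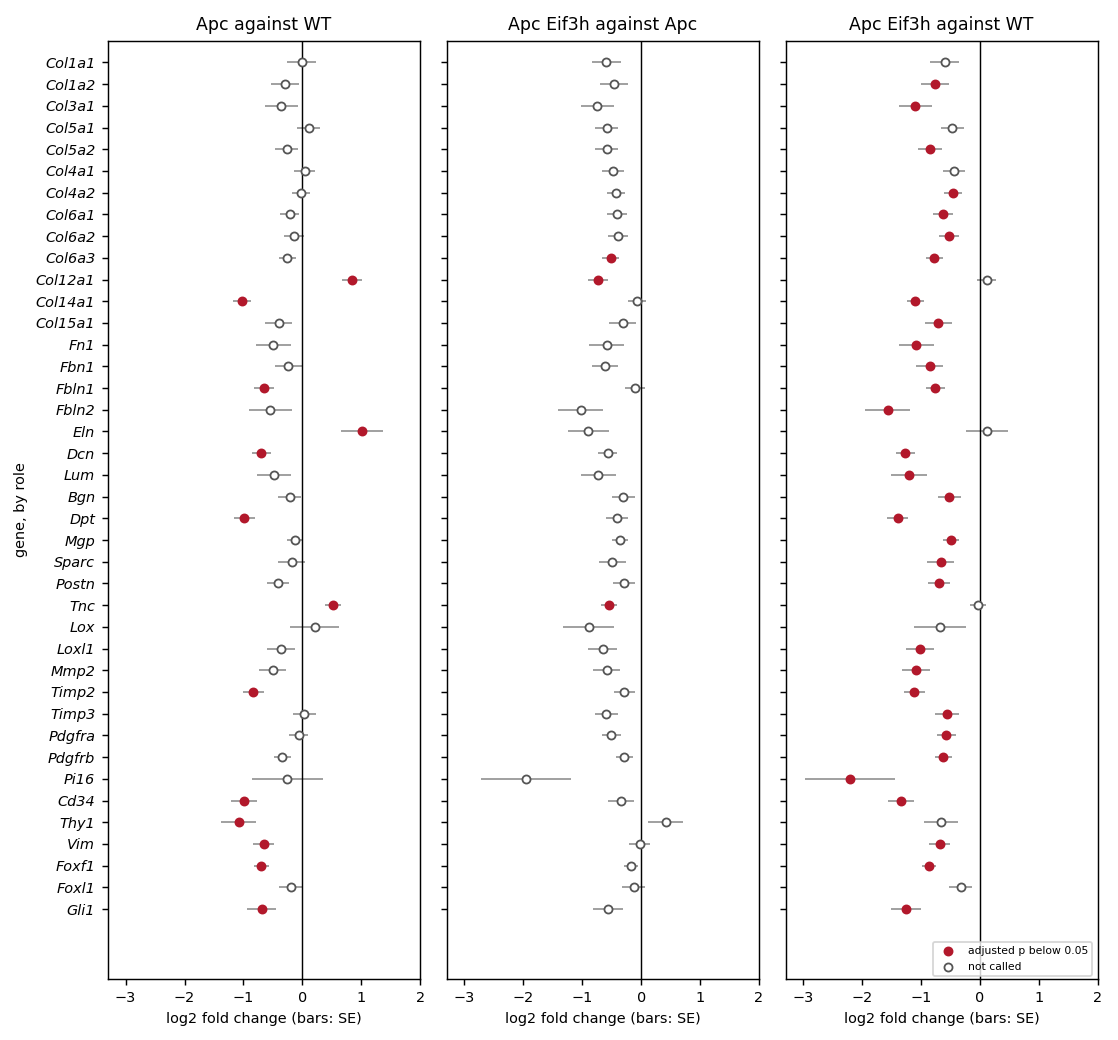
Log2 fold changes of the 40 genes in the 3 comparisons, with bars of 1 SE; filled points have an adjusted p below 0.05 and open points do not. In Apc Eif3h against WT 31 filled points lie left of 0, in Apc against WT 10 lie left and 3 right, and in Apc Eif3h against Apc 3 are filled although 39 of 40 points lie left of 0.

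The fibril-forming collagens Col1a1 and Col1a2 (the 2 chains of type I collagen), Col3a1, Col5a1 and Col5a2 (type V, which nucleates fibrils) were not called in Apc, and 3 of the 5 fell in Apc Eif3h against WT. Col3a1 (ENSMUSG00000026043, chromosome 1, 45311538 to 45349706, plus strand, GRCm38), the most abundant of them per length, was at 721, 510.2, 269 and 331 CPM (WT), 256, 324, 352 and 498 CPM (Apc) and 257, 211, 190.2 and 196 CPM (Apc Eif3h). WT replicate 1 was the highest of all libraries and every Apc Eif3h library was below every WT library, while WT and Apc overlapped. The log2 fold change was -1.10 (SE 0.28, adjusted p = 0.0049) against WT, -0.74 (SE 0.28, adjusted p = 0.127) against Apc, and -0.36 (SE 0.28, adjusted p = 0.294) for Apc against WT. Col5a2 fell by 0.85 against WT (adjusted p = 0.00306) and Col1a2 by 0.77 (adjusted p = 0.0152), a call lost without WT replicate 1 (0.0534) and with library totals only (0.0754). Col1a1 was at 234, 153, 114 and 121 CPM (WT), 105, 145, 146 and 220.1 CPM (Apc) and 118, 117, 81.9 and 93.2 CPM (Apc Eif3h), so that Apc replicate 4 lay near WT replicate 1 and all groups overlapped. Its log2 fold changes were -0.0096 in Apc against WT (adjusted p = 0.977) and -0.60 in Apc Eif3h against WT (adjusted p = 0.0549). The latter passed without, in turn, WT replicate 3 (0.0323), WT replicate 4 (0.0423), Apc replicate 1 (0.044) and Apc replicate 4 (0.0358). It also passed in the 2 groups only (0.0495), with sex as a covariate (0.0172), in male libraries only (0.0331) and by the DESeq2 test (0.0295). Col5a1 gave -0.47 (adjusted p = 0.0552) and passed without, in turn, WT replicate 3 (0.02), WT replicate 4 (0.0406), Apc replicate 4 (0.0493) and Apc Eif3h replicate 1 (0.0342). That value passed with sex as a covariate (0.0264), in male libraries only (0.0428) and by the DESeq2 test (0.0389). Against Apc, Col5a1 passed by the DESeq2 test (0.0495) and Col5a2 with sex as a covariate (0.0497).

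Type IV collagen, the sheet-forming collagen of basement membranes, is built from the chains of Col4a1 and Col4a2, which lie head to head on chromosome 8 (Col4a1 11198423 to 11312826, minus strand; Col4a2 11312805 to 11449287, plus strand). Their annotated starts lie on opposite strands within 22 bases (chr8:11312805-11312826, GRCm38.p6, plus strand, from RefSeq), shown here because the pair shares this start region, with the GC box letters GGGCGG in capitals:
Col4a1/Col4a2 starts: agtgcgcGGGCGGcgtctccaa
Col4a1 was at 280.4, 241, 145 and 179 CPM (WT), 176, 207, 225 and 258 CPM (Apc) and 168, 167, 135 and 154 CPM (Apc Eif3h). Col4a2 was at 158, 145, 98.4 and 120.1 CPM (WT), 102, 125, 129.7 and 156 CPM (Apc) and 93.05, 105, 86.2 and 96.9 CPM (Apc Eif3h). In both genes WT replicates 1 and 2 were high, WT replicate 3 was low and the groups overlapped, except that every Apc Eif3h library was below every Apc library for Col4a1. Neither was called in Apc (0.038 and -0.023, adjusted p = 0.87 and 0.908), and their differences between Apc Eif3h and Apc were -0.47 and -0.43 (adjusted p = 0.139 and 0.105). Against WT, Col4a2 fell in Apc Eif3h (log2 change -0.45, SE 0.15, adjusted p = 0.0212), which was lost without, in turn, WT replicate 1 (0.0689), WT replicate 2 (0.0588) and Apc Eif3h replicate 3 (0.0555), and also with library totals only (0.226). Col4a1 gave -0.44 (adjusted p = 0.0564) and passed without, in turn, WT replicate 3 (0.00946) and WT replicate 4 (0.0464). Col4a1 passed as well with DESeq2 size factors (0.0498), with sex as a covariate (0.0269), in male libraries only (0.0466) and by the DESeq2 test (0.0346).

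All 3 chains of the microfibril-forming type VI collagen fell in Apc Eif3h against WT. Col6a3 (GRCm38 chromosome 1, 90765923 to 90843971, minus strand) was at 136, 129, 81.4 and 112 CPM (WT), 79.4, 102, 103 and 99.6 CPM (Apc) and 71.1, 65.6, 63.1 and 68.7 CPM (Apc Eif3h). Every Apc Eif3h library was below every WT and every Apc library, Apc replicate 1 was the lowest of its group, and WT and Apc overlapped. The log2 fold change was -0.77 (SE 0.14, adjusted p = 0.000566) against WT and -0.52 (SE 0.14, adjusted p = 0.044) against Apc. The second call was lost without, in turn, WT replicate 2 (0.0506), WT replicate 4 (0.0592), Apc replicate 2 (0.101), Apc replicate 3 (0.132), Apc replicate 4 (0.0944), Apc Eif3h replicate 1 (0.0749), Apc Eif3h replicate 2 (0.0967), Apc Eif3h replicate 3 (0.0719) and Apc Eif3h replicate 4 (0.0893), and also with library totals only (0.0655), with no filter (0.0815) and in male libraries only (0.0532). Col6a1 and Col6a2, which lie 85.2 kb apart on chromosome 10, gave -0.63 and -0.53 against WT (adjusted p = 0.0067 and 0.0176), the second lost without, in turn, WT replicate 1 (0.0582) and WT replicate 2 (0.0502). Both calls were lost with library totals only (0.0666 and 0.144). Against Apc they gave -0.41 and -0.39 (adjusted p = 0.162 and 0.185), so that the chains pointed the same way and only Col6a3 passed the test.

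Collagens that decorate fibrils or basement membranes moved in opposite directions in Apc. Col12a1, a fibril-associated collagen found where tissue bears load, was at 26.3, 37.7, 24.4 and 29.1 CPM (WT), 51.1, 45.1, 64.2 and 50.8 CPM (Apc) and 39.8, 25.7, 27.98 and 33.5 CPM (Apc Eif3h). Every Apc library was above every WT and every Apc Eif3h library, and WT and Apc Eif3h overlapped. Col12a1 rose in Apc (log2 change 0.85, SE 0.17, adjusted p = 0.0012, 1.80-fold) and fell in Apc Eif3h against Apc (log2 change -0.73, SE 0.17, adjusted p = 0.0218), which left it 0.11 from WT (SE 0.17, adjusted p = 0.585). The fall was lost without, in turn, Apc replicate 3 (0.0798) and Apc Eif3h replicate 2 (0.0593) and in male libraries only (0.0602). Col14a1, a related fibril-associated collagen of fibroblasts that regulates fibril diameter, moved the other way in Apc and was at 75.9, 63.1, 39.8 and 56.02 CPM (WT), 28.4, 31.4, 27.2 and 28.1 CPM (Apc) and 26.6, 25.6, 28.7 and 28.97 CPM (Apc Eif3h). All 8 mutant libraries were below all WT libraries and overlapped each other. Col14a1 fell 2.04-fold in Apc (log2 change -1.03, SE 0.15, adjusted p = 0.000182) and was also lower in Apc Eif3h against WT (log2 change -1.09, SE 0.15, adjusted p = 8.25e-05), with a difference of -0.065 between the mutants (adjusted p = 0.84). These calls held in all 20 alternatives run. Col15a1, a multiplexin of vessel and muscle basement membranes, fell in Apc Eif3h against WT (log2 change -0.71, SE 0.23, adjusted p = 0.0194), a call lost without, in turn, WT replicate 1 (0.07) and Apc Eif3h replicate 1 (0.0526), and also with library totals only (0.0995).

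**Figure D3:**
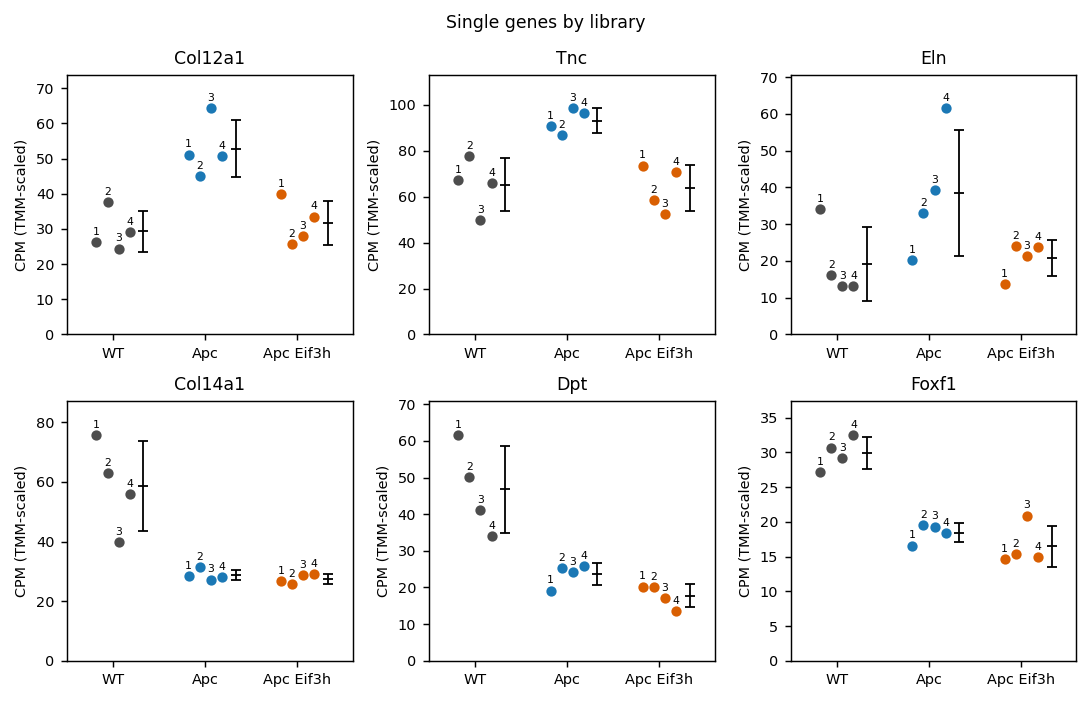
CPM of 6 genes in each library, labelled by replicate number, with the group mean and SD as a bar to the right of each group (n = 4). Col12a1 and Tnc are highest in all 4 Apc libraries, Eln spreads widely within Apc, and Col14a1, Dpt and Foxf1 are lower in all 8 mutant libraries than in all 4 WT libraries.

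Among adhesive and elastic fibre glycoproteins, Eln rose and Fbln1 fell in Apc, and 4 of the 5 fell in Apc Eif3h against WT. Eln encodes elastin, the rubber-like core of elastic fibres, and was at 34.1, 16.2, 13.1 and 13.2 CPM (WT), 20.2, 33.03, 39.2 and 61.5 CPM (Apc) and 13.6, 24.1, 21.3 and 23.8 CPM (Apc Eif3h). Apc replicate 4 was far above Apc replicate 1, WT replicate 1 lay above 2 Apc libraries, and the groups overlapped. The rise in Apc (log2 change 1.01, SE 0.36, adjusted p = 0.031) was lost without, in turn, WT replicate 2 (0.076), WT replicate 3 (0.0845), WT replicate 4 (0.0875), Apc replicate 3 (0.057) and Apc replicate 4 (0.118). Between the mutants its log2 fold change was -0.89, with adjusted p = 0.15. Fbln1, a fibulin that binds elastic fibres and basement membranes and the highest of the 40 genes per length in WT, was at 274, 301, 344 and 259 CPM (WT), 185, 221, 184 and 163 CPM (Apc) and 143, 141, 244 and 170.0 CPM (Apc Eif3h). Every Apc library and every Apc Eif3h library was below every WT library, and Apc Eif3h replicate 3 stood highest in its group. Fbln1 fell in Apc (log2 change -0.65, SE 0.17, adjusted p = 0.0065) and was lower in Apc Eif3h than in WT (log2 change -0.76, SE 0.17, adjusted p = 0.00219), and WT replicate 3, low for most of the 40 genes, was the highest WT library here.

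Fibronectin (Fn1), fibrillin-1 (Fbn1, the scaffold of elastic microfibrils) and fibulin-2 (Fbln2) followed another pattern, with WT and Apc overlapping and Apc Eif3h low. Fn1 was at 340.3, 169, 106 and 126 CPM (WT), 115, 122, 117 and 173 CPM (Apc) and 85.4, 97.9, 71.7 and 96.5 CPM (Apc Eif3h). WT replicate 1 and Apc replicate 4 stood above their groups, and every Apc Eif3h library was below every other library. Against WT the log2 fold change was -1.08 (SE 0.30, adjusted p = 0.00846), against Apc -0.59 (SE 0.30, adjusted p = 0.257). Fbln2 was at 31.5, 17.8, 9.57 and 8.49 CPM (WT), 9.08, 8.52, 10.1 and 18.4 CPM (Apc) and 6.42, 6.19, 5.34 and 4.87 CPM (Apc Eif3h), again with WT replicate 1 and Apc replicate 4 on top. Its fall against WT (log2 change -1.57, SE 0.39, adjusted p = 0.00414) was the largest of the 40 genes after Pi16, and Fbn1 gave -0.85 (SE 0.23, adjusted p = 0.00653). None of the 3 was called against Apc in the fit of all libraries, with Fbln2 at -1.03 (adjusted p = 0.131) and Fbn1 at -0.61 (adjusted p = 0.123; 0.032 without WT in the fit).

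All 5 small matrix proteins and proteoglycans fell in Apc Eif3h against WT, and Dcn and Dpt fell already in Apc. Decorin (Dcn) is a leucine-rich proteoglycan that coats collagen fibrils, and dermatopontin (Dpt) is a small protein that binds decorin and fibrils. Dcn was at 319, 234, 204 and 189 CPM (WT), 148, 124, 142 and 170.2 CPM (Apc) and 113, 109, 92.6 and 79.4 CPM (Apc Eif3h). The 3 groups did not overlap in either step, with WT on top and Apc Eif3h at the bottom. Dcn fell in Apc (log2 change -0.70, SE 0.16, adjusted p = 0.00377) and lay 2.40-fold below WT in Apc Eif3h (log2 change -1.27, SE 0.17, adjusted p = 5.54e-05). Between the mutants the difference was -0.57 (SE 0.17, adjusted p = 0.0563), which passed without WT replicate 1 (0.0269) and by the fit of 2 groups only (0.0464) and the DESeq2 test (0.0169). Dpt was at 61.7, 50.1, 41.2 and 34.02 CPM (WT), 19.1, 25.2, 24.2 and 25.7 CPM (Apc) and 20.3, 20.1, 17.2 and 13.6 CPM (Apc Eif3h). All mutant libraries were below all WT libraries, and the mutant groups overlapped. It fell 1.98-fold in Apc (log2 change -0.98, SE 0.18, adjusted p = 0.000772) and 2.63-fold in Apc Eif3h against WT (log2 change -1.40, SE 0.18, adjusted p = 5.31e-05).

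Lumican (Lum), a proteoglycan encoded 46.98 kb from Dcn on chromosome 10, was at 50.98, 34.2, 27.03 and 20.8 CPM (WT), 18.9, 20.7, 21.4 and 34.3 CPM (Apc) and 17.6, 19.4, 11.5 and 9.46 CPM (Apc Eif3h). WT replicate 1 and Apc replicate 4 were high and Apc Eif3h replicates 3 and 4 low, and only WT and Apc Eif3h did not overlap (log2 change -1.21, SE 0.30, adjusted p = 0.00437). In Apc, Lum gave -0.48 (adjusted p = 0.187) where Dcn fell. Matrix Gla protein (Mgp), an inhibitor of calcification, and biglycan (Bgn), a relative of decorin, gave -0.50 and -0.52 in Apc Eif3h against WT (adjusted p = 0.00765 and 0.0365). The Mgp call was lost with library totals only (0.0963). The Bgn call was lost without, in turn, WT replicate 1 (0.123), WT replicate 2 (0.0906), WT replicate 4 (0.052), Apc Eif3h replicate 1 (0.0669), Apc Eif3h replicate 3 (0.098) and Apc Eif3h replicate 4 (0.089), and also with library totals only (0.229), with no filter (0.0615), in the 2 groups only (0.0742) and in male libraries only (0.0661).

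Of the matricellular proteins, which signal to cells more than they bear load, Tnc rose in Apc and fell back in Apc Eif3h, and Sparc and Postn fell in Apc Eif3h against WT. Tenascin-C (Tnc) is induced at sites of tissue remodelling and was at 67.3, 77.7, 49.7 and 65.8 CPM (WT), 90.6, 86.7, 98.4 and 96.4 CPM (Apc) and 73.5, 58.6, 52.4 and 70.6 CPM (Apc Eif3h). Every Apc library was above every other library, and WT and Apc Eif3h overlapped. It rose in Apc (log2 change 0.51, SE 0.13, adjusted p = 0.00668, 1.43-fold) and this call held in all alternatives run. It fell in Apc Eif3h against Apc (log2 change -0.54, SE 0.13, adjusted p = 0.0307), a call lost without, in turn, Apc replicate 1 (0.0595), Apc replicate 2 (0.052), Apc replicate 3 (0.0981), Apc replicate 4 (0.0703), Apc Eif3h replicate 2 (0.0807) and Apc Eif3h replicate 3 (0.0558), and also with library totals only (0.0562), with no filter (0.0553) and in male libraries only (0.0788). Against WT it was at -0.031 (adjusted p = 0.856). Sparc, a collagen-binding protein that was second highest of the 40 genes per length in WT, was at 317, 211, 165 and 143 CPM (WT), 136, 171, 183 and 249 CPM (Apc) and 137, 149.9, 118 and 122 CPM (Apc Eif3h). WT replicate 1 and Apc replicate 4 were the highest of their groups and all groups overlapped. Its fall against WT (log2 change -0.67, SE 0.23, adjusted p = 0.0254) was lost without, in turn, WT replicate 1 (0.0931), Apc Eif3h replicate 3 (0.0613) and Apc Eif3h replicate 4 (0.063), and also with library totals only (0.123). Periostin (Postn) fell in the same comparison (log2 change -0.70, SE 0.19, adjusted p = 0.00733), a call lost with library totals only (0.0525). It gave -0.41 in Apc (adjusted p = 0.0861), which passed without, in turn, WT replicate 4 (0.0325) and Apc Eif3h replicate 1 (0.0468) and in the 2 groups only (0.0423).

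The DNA just upstream of Tnc and Col6a3, which were both lower in Apc Eif3h than in Apc, and of Dpt, which fell in both mutants, is shown for reference (RefSeq windows on GRCm38.p6, ending at the base before the most upstream annotated start, each read 5′ to 3′ on the gene's strand; the last 19 bases before the Dpt start, which GENCODE annotates as exon, are left out). The windows are chr4:64047016-64047265 (minus), chr1:90843972-90844221 (minus) and chr1:164796413-164796643 (plus). Capitals mark matches on either strand to any of 6 short motifs: TATAAA (the TATA box), GGGCGG (the Sp1 GC box), TGANTCA (the AP-1 site), CAGACA (the SMAD box), GGAATG (the TEAD site) and CTTTGA (the TCF/LEF core), none of which contains another.
Tnc: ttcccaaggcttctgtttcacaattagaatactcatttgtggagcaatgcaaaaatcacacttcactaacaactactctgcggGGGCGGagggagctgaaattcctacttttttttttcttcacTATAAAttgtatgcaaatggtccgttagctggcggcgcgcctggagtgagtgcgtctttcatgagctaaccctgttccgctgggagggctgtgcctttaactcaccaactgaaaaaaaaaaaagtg
Col6a3: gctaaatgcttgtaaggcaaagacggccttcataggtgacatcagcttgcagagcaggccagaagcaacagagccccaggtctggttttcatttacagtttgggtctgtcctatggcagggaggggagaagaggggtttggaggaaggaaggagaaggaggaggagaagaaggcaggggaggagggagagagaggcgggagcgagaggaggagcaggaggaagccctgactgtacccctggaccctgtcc
Dpt: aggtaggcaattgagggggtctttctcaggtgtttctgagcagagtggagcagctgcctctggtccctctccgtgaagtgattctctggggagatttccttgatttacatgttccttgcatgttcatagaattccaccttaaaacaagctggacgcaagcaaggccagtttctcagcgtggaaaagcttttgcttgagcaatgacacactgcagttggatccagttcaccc
The Tnc window held a GC box match starting 167 bases and a TATA box match starting 126 bases before the start, and those of Col6a3 and Dpt held none of the 6. The Col6a3 window was 67.2% purine on the printed strand, against 48.8% for Tnc and 48.5% for Dpt. Windows of 250 bases were found for 23 of the 40 genes. A GC box match stood in 10 of the 23 and in 32.7% of all 32851 windows, a SMAD match in 5 (17.1%), a TCF/LEF core in 5 (13.8%), a TATA box in 3 (12.4%), and AP-1 and TEAD matches in 1 each (6.75% and 12.6%). A match describes the letters only.

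Among enzymes that crosslink or cut the matrix, Loxl1 and Mmp2 fell in Apc Eif3h against WT and Lox was not called. Lox and Loxl1 are copper-dependent oxidases that crosslink collagen and elastin. Loxl1 was at 21.8, 12.3, 9.98 and 11.2 CPM (WT), 8.99, 8.78, 10.2 and 14.9 CPM (Apc) and 6.28, 7.42, 6.64 and 7.01 CPM (Apc Eif3h), with every Apc Eif3h library below every other library and WT replicate 1 and Apc replicate 4 on top. Its log2 fold change was -1.02 (SE 0.24, adjusted p = 0.00354) against WT and -0.65 (SE 0.24, adjusted p = 0.126) against Apc, the latter passing without WT replicate 1 (0.0443). Lox was low, at 10.3, 3.56, 3.24 and 2.06 CPM (WT), 4.10, 4.02, 4.90 and 8.98 CPM (Apc) and 3.41, 3.46, 2.61 and 2.54 CPM (Apc Eif3h), and WT replicate 1 and Apc replicate 4 stood well above the rest. It was called in no comparison (-0.68 against WT, adjusted p = 0.2). The gelatinase Mmp2 was at 74.7, 70.3, 31.8 and 61.4 CPM (WT), 30.2, 46.5, 42.3 and 49.04 CPM (Apc) and 34.4, 24.4, 28.2 and 25.4 CPM (Apc Eif3h). WT replicate 3 overlapped the Apc Eif3h libraries, and the fall against WT was -1.08 (SE 0.23, adjusted p = 0.00175). Its difference from Apc was -0.58 (SE 0.23, adjusted p = 0.152) and passed without WT replicate 3 (0.0445).

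Timp2 and Timp3 are inhibitors of such proteases. Timp2 was at 92.5, 60.5, 55.4 and 50.6 CPM (WT), 30.2, 40.1, 34.97 and 39.9 CPM (Apc) and 29.1, 35.3, 30.5 and 24.7 CPM (Apc Eif3h), and all mutant libraries were below all WT libraries. It fell in Apc (log2 change -0.83, SE 0.18, adjusted p = 0.00204) and Apc Eif3h (log2 change -1.12, SE 0.18, adjusted p = 0.000242) against WT, with -0.28 between the mutants (adjusted p = 0.365). Timp3 overlapped between WT and Apc (means ± SD over 4 libraries: WT 24.01 ± 8.12 CPM, Apc 24.6 ± 2.79 CPM, Apc Eif3h 16.3 ± 1.56 CPM). In Apc Eif3h it lay below every Apc library. Its fall against WT (log2 change -0.56, SE 0.20, adjusted p = 0.0274) was lost without, in turn, WT replicate 1 (0.0746), WT replicate 2 (0.103), Apc Eif3h replicate 1 (0.052), Apc Eif3h replicate 2 (0.0635) and Apc Eif3h replicate 3 (0.0517). The call was also lost with library totals only (0.163), with no filter (0.0508) and in the 2 groups only (0.0551). Against Apc it gave -0.59 (adjusted p = 0.0882), and passed by the fit of 2 groups only (0.0251), the fit with sex as a covariate (0.0385) and the DESeq2 test (0.041). The antisense neighbour Syn3, in whose locus Timp3 lies, held 4.84% as many counts as Timp3.

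Among fibroblast surface and cytoskeletal markers, Cd34, Thy1 and Vim fell in Apc, and the PDGF receptors did not. Cd34, a sialomucin of fibroblasts and endothelium, was at 49.7, 33.6, 25.9 and 23.2 CPM (WT), 12.7, 15.8, 15.9 and 21.7 CPM (Apc) and 12.8, 14.05, 13.7 and 11.96 CPM (Apc Eif3h). All mutant libraries were below all WT libraries. It fell 1.99-fold in Apc (log2 change -0.99, SE 0.22, adjusted p = 0.00243) and 2.52-fold in Apc Eif3h (log2 change -1.34, SE 0.22, adjusted p = 0.000299). Thy1, a glycoprotein of fibroblasts and T cells, was at 12.01, 9.19, 8.73 and 11.9 CPM (WT), 4.19, 5.07, 5.60 and 4.83 CPM (Apc) and 4.81, 12.3, 5.21 and 4.29 CPM (Apc Eif3h). Apc libraries were all below WT, and Apc Eif3h replicate 2, the library with high leukocyte markers, stood at the WT level. Thy1 fell in Apc (log2 change -1.08, SE 0.30, adjusted p = 0.00865), a call lost in male libraries only (0.0596). In Apc Eif3h against WT it gave -0.66 (adjusted p = 0.0655), which passed without Apc Eif3h replicate 2 (0.000194) and by the DESeq2 test (0.0437). Vimentin (Vim), the intermediate filament of mesenchymal cells and leukocytes, was at 142, 109.9, 80.3 and 105 CPM (WT), 65.6, 67.99, 59.2 and 84.2 CPM (Apc) and 68.98, 88.2, 56.8 and 58.3 CPM (Apc Eif3h), with -0.66 (SE 0.18, adjusted p = 0.00852) in Apc and -0.68 (SE 0.18, adjusted p = 0.006) in Apc Eif3h. WT replicate 3 lay below Apc replicate 4 and Apc Eif3h replicate 2, and both calls were lost with library totals only (0.0884 and 0.0573).

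Pdgfra, the receptor that marks subepithelial fibroblasts, was at 87.3, 99.1, 53.3 and 72.3 CPM (WT), 74.4, 72.1, 80.3 and 71.98 CPM (Apc) and 62.03, 54.6, 41.6 and 52.1 CPM (Apc Eif3h). WT and Apc overlapped, and every Apc Eif3h library was below every Apc library. It fell in Apc Eif3h against WT (log2 change -0.57, SE 0.17, adjusted p = 0.0105), a call lost with library totals only (0.116). Against Apc it gave -0.51 (SE 0.16, adjusted p = 0.0844), which passed without WT replicate 3 (0.0341) and by the fit of 2 groups only (0.0458) and the DESeq2 test (0.0471). Pdgfrb, shared with pericytes, fell against WT (log2 change -0.62, SE 0.15, adjusted p = 0.003), a call lost with library totals only (0.0529). In Apc it gave -0.34 (adjusted p = 0.0682), which passed without, in turn, WT replicate 3 (0.0114) and WT replicate 4 (0.046) and by the DESeq2 test (0.046). Pi16, a marker of adventitial fibroblasts, was the lowest of the 40 genes, at 2.94, 0.641, 0.499 and 0.247 CPM (WT), 0.534, 0.679, 0.653 and 1.66 CPM (Apc) and 0.201, 0.186, 0.310 and 0.223 CPM (Apc Eif3h). WT replicate 1 held more than all other WT libraries together. The fall against WT (log2 change -2.21, SE 0.77, adjusted p = 0.0257) was lost without, in turn, WT replicate 1 (0.171), Apc Eif3h replicate 1 (0.0533) and Apc Eif3h replicate 4 (0.0589), and the difference from Apc (log2 change -1.96, SE 0.76, adjusted p = 0.141) passed without WT replicate 1 (0.03).

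Of the mesenchymal transcription factors, Foxf1 and Gli1 fell in both mutants against WT and Foxl1 was not called. Foxf1, a forkhead factor induced by hedgehog signals from the epithelium, was at 27.1, 30.7, 29.2 and 32.5 CPM (WT), 16.6, 19.5, 19.3 and 18.4 CPM (Apc) and 14.6, 15.3, 20.9 and 14.96 CPM (Apc Eif3h). The WT libraries lay close together and above all 8 mutant libraries, so that this gene did not follow the high values of WT replicate 1. It fell 1.62-fold in Apc (log2 change -0.69, SE 0.12, adjusted p = 0.000525) and 1.82-fold in Apc Eif3h (log2 change -0.86, SE 0.12, adjusted p = 8.78e-05), calls that held in all 20 alternatives run. Foxl1, the forkhead factor of telocytes under the epithelium, was at 4.80, 5.77, 3.41 and 4.12 CPM (WT), 4.10, 4.76, 2.94 and 4.10 CPM (Apc) and 3.74, 3.46, 4.10 and 3.26 CPM (Apc Eif3h) and all groups overlapped (-0.19 in Apc and -0.32 in Apc Eif3h, adjusted p = 0.417 and 0.172). Gli1, the hedgehog effector, was at 8.75, 10.97, 5.66 and 4.61 CPM (WT), 3.56, 5.49, 5.11 and 4.36 CPM (Apc) and 3.41, 2.72, 3.54 and 2.99 CPM (Apc Eif3h). The Apc Eif3h libraries were below all others, and WT and Apc overlapped. Gli1 fell in Apc (log2 change -0.69, SE 0.25, adjusted p = 0.0329), a call lost without, in turn, WT replicate 1 (0.0813), WT replicate 2 (0.129), Apc replicate 1 (0.0851) and Apc replicate 4 (0.076), and also with library totals only (0.15), with no filter (0.0506) and in the 2 groups only (0.0529). In Apc Eif3h against WT its log2 fold change was -1.25 (SE 0.26, adjusted p = 0.00122). Gli1 overlaps Arhgap9 on the opposite strand, which held 263% as many counts, and the strand setting of the counting is not given in the sources used here, so reads of the 2 genes may be mixed.

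Between genes, levels were compared as CPM per kilobase of merged GENCODE exons. In WT the 5 highest were Fbln1 (67.4), Sparc (55.2), Col3a1 (46.6), Dcn (40.5) and Col6a1 (36.6), and the lowest was Pi16 (0.170). On this scale Fbln1 and Sparc remained the 2 highest in Apc (with Sparc first) and in Apc Eif3h. Dpt passed from rank 8 in WT to 13 in Apc, and Eln from 35 to 25. Within the summed CPM of the 40 genes, Tnc took (as mean ± SD of 4 libraries) 1.83% ± 0.344 for WT, 3.13% ± 0.399 for Apc and 2.94% ± 0.417 for Apc Eif3h. Col12a1 took 0.837% ± 0.205, 1.78% ± 0.358 and 1.46% ± 0.258. As a share of this gene set both lay above every WT library in each Apc Eif3h library, while their CPM overlapped between these groups.

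**Figure D4:**
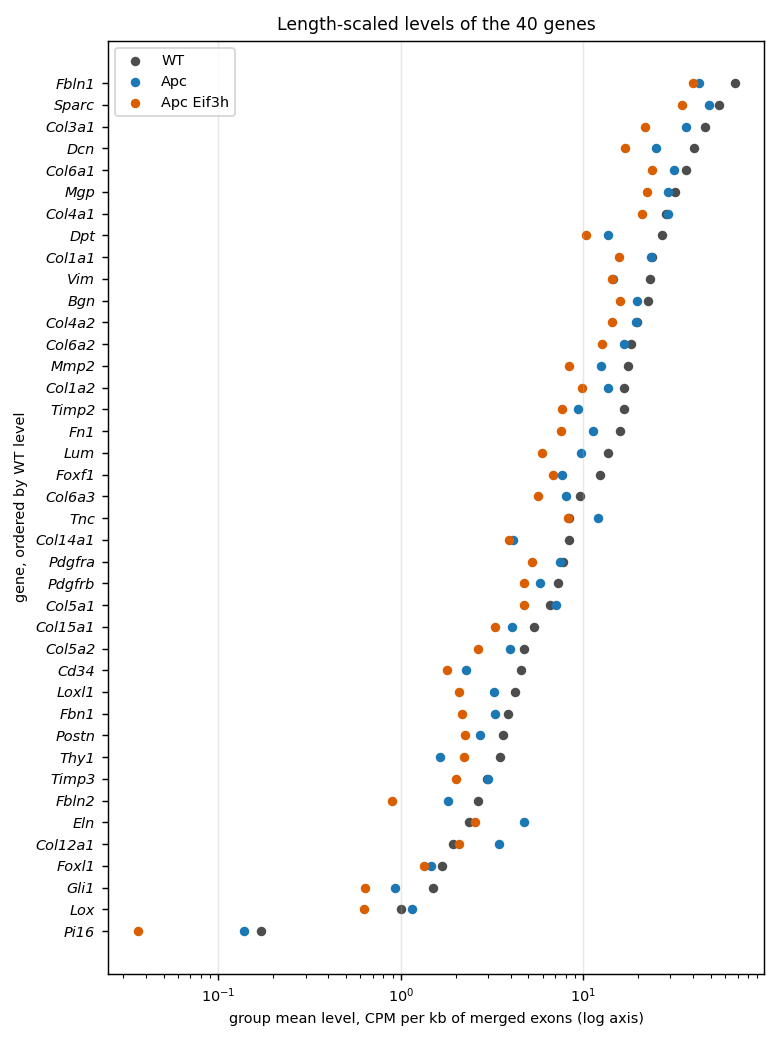
Group mean levels of the 40 genes in CPM per kilobase of merged exons on a log axis, ordered by the WT level, with 1 point per group. Fbln1 and Sparc lead in all groups, Pi16 is lowest, and the Apc Eif3h point is the leftmost for 37 of the 40 genes. Of all genes tested, 32.8% had their lowest mean in Apc Eif3h.

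The 40 genes hold 5 pairs of neighbours within a megabase. Besides the type IV and type VI pairs and Dcn with Lum, these were Col3a1 with Col5a2 (24.6 kb apart on chromosome 1, on opposite strands) and Foxf1 with Foxl1 (39.8 kb apart on chromosome 8, with Mthfsd and Foxc2 between them). In Apc Eif3h against WT, Col3a1 and Col5a2 gave -1.10 and -0.85, Col4a1 and Col4a2 -0.44 and -0.45, and Col6a1 and Col6a2 -0.63 and -0.53. Dcn and Lum gave -1.27 and -1.21 in this comparison, and Foxf1 and Foxl1 -0.86 and -0.32. The median of all 40 genes was -0.70 there. In Apc, Dcn at -0.70 and Lum at -0.48, and Foxf1 at -0.69 and Foxl1 at -0.19, were called in the first of each pair and not in the second, and the difference within a pair was not tested.

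Other genes of the matrix pathway, from lists of genes outside the 40, were read from the same fit. For the counts below, the background in Apc was 27.7% of all genes tested higher and 24.1% lower. In Apc Eif3h it was 4.27% higher and 2.78% lower against Apc, and 29.8% higher and 28.1% lower against WT. Other collagens were called as 0 higher and 10 lower of 22 tested (median log2 fold change -0.56) in Apc, 0 higher and 1 lower in Apc Eif3h against Apc, and 0 higher and 16 lower in Apc Eif3h against WT (median -0.80). The counts of higher other collagens in these 3 comparisons, in this order, were 0, 2 and 0 at an unadjusted p below 0.05 by edgeR, and 0, 1 and 0 by DESeq2. Col27a1 gave -0.94 (SE 0.13, adjusted p = 8.09e-05) and Col8a1, the single call between the mutants, -0.95 (SE 0.23, adjusted p = 0.0289). Further matrix glycoproteins and proteoglycans gave 3 higher and 13 lower of 33 tested (median log2 fold change -0.47) in Apc and 1 higher and 23 lower of 33 tested (median log2 fold change -0.82) in Apc Eif3h against WT. Smoc2, a matricellular protein that crypt base stem cells also express, rose in Apc (log2 change 1.0, SE 0.077, adjusted p = 4.58e-06) and fell in Apc Eif3h against Apc (log2 change -0.63, SE 0.077, adjusted p = 0.00171), as did Tnc and Col12a1; Prelp, a leucine-rich proteoglycan, was the other of 2 lower genes there (log2 change -0.93, SE 0.15, adjusted p = 0.00574). Tenascin-X (Tnxb) went the opposite way to Tnc in Apc against WT, with -1.10 (adjusted p = 9.96e-05). In Apc Eif3h against WT Tnxb gave -1.35 (SE 0.15, adjusted p = 1.59e-05), where Tnc was at -0.031 and not called.

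Collagen processing genes, which hydroxylate, fold, export and trim procollagen in many cell types, gave 3 higher and 8 lower of 25 tested (median log2 fold change -0.17) in Apc, 0 higher and 1 lower in Apc Eif3h against Apc (P3h3 at -0.64, adjusted p = 0.0434), and 3 higher and 13 lower of 25 tested (median log2 fold change -0.55) in Apc Eif3h against WT. The export factors Mia3 and Sec23a were at -0.51 and -0.78 in Apc (adjusted p = 0.000543 and 0.000547). Laminins and basement membrane genes were split, with 4 higher and 4 lower of 19 tested (median log2 fold change 0.059) in Apc. Neither count exceeded the share over all genes tested (27.7% higher and 24.1% lower). Lama1 rose by 1.39 (adjusted p = 7.63e-05), while Lamc3 fell (log2 change -1.74, SE 0.26, adjusted p = 0.000199). Lama1, Lama5 and Lamb2 were the 3 that fell in Apc Eif3h against Apc (-0.76, -0.61 and -0.45; adjusted p = 0.0197, 0.0347 and 0.044), and 0 rose. Against WT, laminins and basement membrane genes gave 2 higher and 8 lower of 19 tested (median log2 fold change -0.51) in Apc Eif3h. Other proteases and inhibitors, in a list that also held the crosslinking enzyme Loxl2, gave 7 higher and 3 lower of 26 tested (median log2 fold change 0.040) in Apc. For Apc Eif3h against WT the counts of this list were 1 higher and 8 lower (median -0.36). Among those higher in Apc were the protease Plat (tissue plasminogen activator) at 1.11 (SE 0.18, adjusted p = 0.000361) and Adamts1 at 0.79 (SE 0.17, adjusted p = 0.00188). Between the mutants Loxl2, Adamts4, Plat and Mmp13 fell (-0.58, -1.24, -0.70 and -0.61; adjusted p = 0.0148, 0.0248, 0.0341 and 0.0364), 4 of 26.

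TGF-beta and PDGF signalling genes, upstream of fibroblast matrix output, gave 5 higher and 4 lower of 17 tested (median log2 fold change -0.068) in Apc and 4 higher and 3 lower of 17 tested (median log2 fold change 0.0011) in Apc Eif3h against WT. The counts in Apc were near the shares over all genes tested (27.7% higher and 24.1% lower). Those in Apc Eif3h against WT were below them (29.8% and 28.1%). Ski was the single call between the mutants (log2 change 0.23, SE 0.056, adjusted p = 0.0304). The receptor Tgfbr2 rose in Apc (log2 change 1.20, SE 0.21, adjusted p = 0.000618) and so did Ccn2, a matricellular target of TGF-beta and YAP (log2 change 1.19, SE 0.26, adjusted p = 0.00255), while the co-receptor Tgfbr3 fell (log2 change -0.64, SE 0.13, adjusted p = 0.00169). Hedgehog pathway genes, which carry the signal that induces Gli1 and Foxf1, gave 3 higher and 4 lower of 12 tested (median log2 fold change -0.22) in Apc. Gas1, a hedgehog co-receptor, fell (log2 change -1.69, SE 0.13, adjusted p = 3.99e-06), Foxf2, a relative of Foxf1, fell (log2 change -0.80, SE 0.16, adjusted p = 0.00158), and the transducer Smo rose (log2 change 1.03, SE 0.18, adjusted p = 0.000511). Boc, another co-receptor, fell between the mutants (log2 change -0.61, SE 0.15, adjusted p = 0.0328). Against WT, the hedgehog pathway genes gave 2 higher and 5 lower of 12 tested (median log2 fold change -0.36) in Apc Eif3h. Integrins and discoidin receptors, the matrix receptors of cells, gave 5 higher and 6 lower of 17 tested (median log2 fold change -0.22) in Apc, with the epithelial laminin receptor chain Itga6 at 0.74 (SE 0.10, adjusted p = 8.22e-05) and the collagen receptor Itga2 at 1.02 (SE 0.14, adjusted p = 0.00014). Itga1 and Itga6 fell between the mutants (-0.37 and -0.38, adjusted p = 0.0249 and 0.033). Against WT, integrins and discoidin receptors gave 4 higher and 10 lower of 17 tested (median log2 fold change -0.35) in Apc Eif3h. Of all genes tested, 29.8% rose and 28.1% fell there.

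Of the 12 epithelial markers, 4 fell and 1 rose in Apc against WT (median log2 fold change -0.36). In Apc Eif3h against WT 3 fell and 1 rose (median -0.31). Of all genes tested, 24.1% fell in Apc and 28.1% in Apc Eif3h against WT. Markers of other cells outside the epithelium were also lower against WT. They comprised endothelium (7 of 12 lower in Apc and 11 in Apc Eif3h; medians -0.56 and -0.78), smooth muscle (7 of 12 lower in Apc and 8 in Apc Eif3h; medians -0.40 and -0.55), pericytes (3 of 6 lower in Apc and 4 in Apc Eif3h; medians -0.34 and -0.60), enteric neurons and glia (6 of 10 lower in Apc and 8 in Apc Eif3h; medians -0.61 and -0.83) and leukocytes (5 of 9 lower in Apc and 6 in Apc Eif3h; medians -0.99 and -0.93). None of the markers of these lists was at 0 in all libraries, and none of the tested ones rose at an adjusted p below 0.05 in either comparison by edgeR (at an unadjusted p below 0.05, 0 and 1; by DESeq2, 0 and 0). Summed CPM in WT, Apc and Apc Eif3h, in this order, was 2429.8 to 3769, 1969.9 to 2279 and 1703 to 2402 for smooth muscle, 257 to 460.4, 229.8 to 292 and 203 to 257 for endothelium, and 203 to 586, 185 to 209 and 145 to 634 for leukocytes. For pericytes the sums were 393 to 493, 231 to 287 and 200.5 to 262, and for neurons and glia 49.3 to 62.3, 32.9 to 37.8 and 27.8 to 35.9. Of the mesothelial markers, 5 of 6 fell in Apc and 4 of 6 in Apc Eif3h against WT, with Lrrn4 at -2.71 in Apc (adjusted p = 0.00045), and their median between the mutants was 0.43. Krt19, which gut epithelium also expresses, rose in Apc Eif3h against WT (log2 change 0.33, SE 0.13, adjusted p = 0.0382) and dominated their sum of 738 to 937, 745 to 899 and 840.3 to 1112 CPM. The part of these cells in the levels of the 40 genes was not tested.

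The WT libraries at the extremes of the 40 genes stood in reverse order for smooth muscle: WT replicate 1 had the highest sum of the 40 genes (4945 CPM) and the lowest of smooth muscle markers (2429.8), and WT replicate 3 the lowest of the 40 (2726) and the highest of smooth muscle (3769). Myh11, the smooth muscle myosin, was at 451, 531, 727 and 523 CPM in WT replicates 1 to 4 and Acta2 at 363, 431, 564 and 437. Endothelial and leukocyte markers were highest in WT replicate 1 and lowest in WT replicate 3, as the 40 genes were. Between the mutants, where 39 of 40 fold changes were below 0, smooth muscle markers had a median log2 fold change of -0.075 (1 of 12 called, Cald1 at -0.37), endothelium -0.26, pericytes -0.24, neurons and glia -0.15 and leukocytes 0.059, against -0.50 for the 40 genes. Whether the 40 genes differed from those lists was not tested. Epithelial markers had a median of 0.072 between the mutants.

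**Figure D5:**
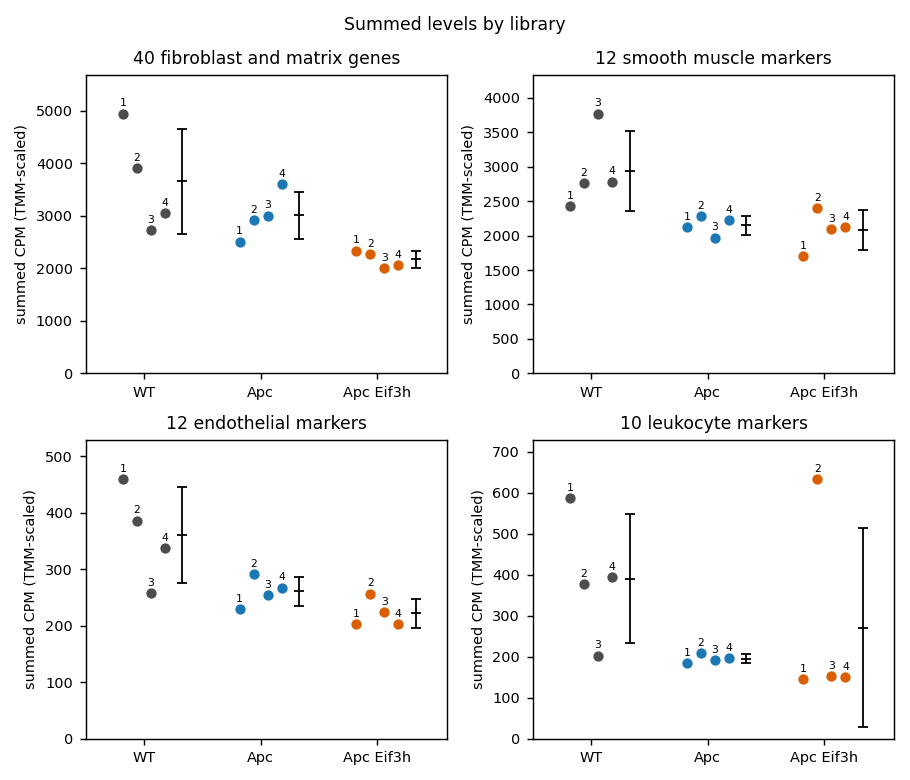
Summed CPM by library for the 40 genes and for markers of smooth muscle, endothelium and leukocytes, labelled by replicate number, with the group mean and SD (n = 4). The 40 genes are lowest in the 4 Apc Eif3h libraries, smooth muscle markers are lower in all 8 mutant libraries than in the 4 WT libraries, endothelial markers overlap at WT replicate 3, and Apc Eif3h replicate 2 stands out for leukocytes.

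Markers of crypt trophocytes and adventitial fibroblasts, 2 of which (Cd34 and Pi16) are among the 40 genes, gave 0 higher and 6 lower of 10 tested (median log2 fold change -0.70) in Apc and 0 higher and 8 lower of 10 tested (median log2 fold change -1.05) in Apc Eif3h against WT. The stem cell niche factor Rspo3 was at 4.34, 3.63, 3.74 and 4.12 CPM (WT), 2.40, 2.35, 1.20 and 1.87 CPM (Apc) and 1.47, 1.92, 1.92 and 2.14 CPM (Apc Eif3h). It fell in Apc (log2 change -1.03, SE 0.21, adjusted p = 0.0015), as did the chemokine scavenger Ackr4 (log2 change -0.77, SE 0.15, adjusted p = 0.000953) and complement C3 (log2 change -2.74, SE 0.48, adjusted p = 0.000565). Markers of villus telocytes and subepithelial fibroblasts, which include Pdgfra and Foxl1, gave 1 higher and 2 lower of 9 tested (median log2 fold change -0.10) in Apc and 1 higher and 5 lower of 9 tested (median log2 fold change -0.58) in Apc Eif3h against WT. F3, tissue factor, rose in Apc (log2 change 1.04, SE 0.14, adjusted p = 0.000103), and Wnt5a, a secreted Wnt ligand of these fibroblasts, was at 20.5, 28.4, 22.9 and 21.8 CPM (WT), 21.8, 22.2, 22.4 and 24.2 CPM (Apc) and 16.8, 12.7, 13.3 and 14.3 CPM (Apc Eif3h). Wnt5a fell in Apc Eif3h against Apc (log2 change -0.67, SE 0.12, adjusted p = 0.00808), as did Sox6 (log2 change -0.42, SE 0.11, adjusted p = 0.0386). Over all genes tested, 27.7% rose and 24.1% fell in Apc, and 29.8% rose and 28.1% fell in Apc Eif3h against WT. The difference between the fibroblast subsets was not tested. In which cells of the tissue C3, F3 and the other genes of these lists changed was not tested either.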

How the data were processed

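Per the labels' protocols, kit-isolated RNA of mouse small intestine was read in pairs of 36 cycles. The authors deposited whole-number counts per gene, not normalized. FastQC 0.11.8, Trim Galore 0.6.4, HISAT2 2.1.0, featureCounts 1.6.4 and GRCm38 are named without settings, per the submitters' processing notes; the strand setting, annotation release and handling of multi-mapped reads are not recorded there. Of 55421 identifiers 55240 matched GENCODE M21 (GRCm38); the rest held 0.00226% of counts.

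The count model came from edgeR 4.0.16 (R 4.3.3; low-count filter filterByExpr with the groups, TMM factors, quasi-likelihood model of all 12 libraries with 1 mean per group), with Benjamini-Hochberg adjustment over 17394 genes and calls below 0.05. Standard errors were derived from the log2 fold change and the F statistic. DESeq2 1.42.0 was an alternative, besides other scalings, no filter, 2-group fits, a replicate block, sex, male libraries only and leaving out each library. Levels are CPM after TMM scaling. All 40 genes could be named; from other lists, up to 3 called genes of smallest p per comparison, all of counts of 5 or fewer, and a few defining markers. The genes and lists were chosen with earlier results of these data known. On simulated counts, changes of 0.5, 1 and 2 (log2) were recovered in 20%, 54% and 92% (Apc against WT, 17230 genes, 3 false calls), 16%, 59% and 98% (Apc Eif3h against Apc, 17230 genes, 5 false calls) and 12%, 55.6% and 94% (Apc Eif3h against WT, 17218 genes, 6 false calls). Whether these rates hold for the measured counts, where 51.8%, 7.05% and 57.8% of genes were called in this order, was not tested. Libraries of a group always differed by more than counting noise (chi-square per gene 18.4 to 53.6 over 18 pairs).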

Additional observations from a re-analysis of the deposited data

Results flagged for a closer look

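Among 123 groups of 4 values checked, 11 held a library far from the other 3 by Dixon's ratio at the 95% level, where chance alone would mark about 1 group in 20. Apc Eif3h replicate 1 was highest for Col6a2 (126 CPM, others 98.5 to 99.6). Apc replicate 1 was lowest for Col6a3 (79.4 CPM, others 99.6 to 103). Apc replicate 4 was highest for Fn1 (173 CPM, others 115 to 122), Fbln2 (18.4 CPM, others 8.52 to 10.1), Lum (34.3 CPM, others 18.9 to 21.4) and Pi16 (1.66 CPM, others 0.534 to 0.679). WT replicate 1 was highest for Eln (34.1 CPM, others 13.1 to 16.2) and Pi16 (2.94 CPM, others 0.247 to 0.641). Apc Eif3h replicate 2 was highest for Mgp (30.4 CPM, others 24.95 to 25.9) and Thy1 (12.3 CPM, others 4.29 to 5.21). Apc Eif3h replicate 3 was highest for Foxf1 (20.9 CPM, others 14.6 to 15.3). Leukocyte markers were also high in Apc Eif3h replicate 2, and their part in its Thy1 level was not tested.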

How the results depend on the processing

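Of 2397 refitted values of the 40 genes, 2213 kept their direction and side of the threshold, 84 lost a call, 50 gained one and 50 changed sign, all of the last in comparisons where the gene was not called. In Apc Eif3h against Apc, lower genes of the 40 numbered 1 with library totals only, 1 with no filter, 7 in the 2 groups alone, 5 with sex as a covariate, 0 in male libraries only and 7 by DESeq2, and 0 to 6 when 1 library was left out. All genes called there numbered 1226, 817 with no filter, 659 in male libraries only and 406 to 1767 with 1 library left out. In Apc Eif3h against WT, 18 of the 40 fell with library totals only. The cause of these changes was not tested. Values that changed sign were, in Apc against WT unless stated, with library totals only Col1a1 0.21, Col4a2 0.20, Col6a1 0.0034, Col6a2 0.082, Bgn 0.0064, Mgp 0.10, Sparc 0.042, Tnc 0.16 (Apc Eif3h against WT), Pdgfra 0.15, Foxl1 0.025; with no filter Col1a1 0.0097; in the 2 groups alone Col1a1 0.011; with the replicate block Col1a1 0.030; in male libraries only Col1a1 0.030, Col4a2 0.032, Eln -0.024 (Apc Eif3h against WT), Timp3 -0.040; with sex as a covariate Eln -0.080 (Apc Eif3h against WT). Leaving out 1 library, values that changed sign ranged in Apc against WT Col1a1 -0.23 to 0.26, Col5a1 -0.016 to 0.29, Col4a1 -0.11 to 0.20, Col4a2 -0.14 to 0.081, Mgp -0.25 to 0.0073, Sparc -0.36 to 0.092, Lox -0.14 to 0.90, Timp3 -0.11 to 0.24, Pdgfra -0.21 to 0.072, Pi16 -0.78 to 0.95; in Apc Eif3h against WT Col12a1 -0.013 to 0.25, Eln -0.027 to 0.55, Tnc -0.14 to 0.074, Lox -0.93 to 0.0071; in Apc Eif3h against Apc Thy1 -0.056 to 0.59, Vim -0.17 to 0.083. Replicate numbers did not pair libraries (correlations of same-numbered libraries -0.14 to 0.24, 3 of 12 above 0.1), and 3 of 12 correlated best with their own number. With the replicate block, 2 of the 40 were higher and 11 lower in Apc, 2 lower in Apc Eif3h against Apc and 30 lower in Apc Eif3h against WT. Under this block Eln in Apc, Col6a3 in Apc Eif3h against Apc and Timp3 in Apc Eif3h against WT did not pass (adjusted p = 0.0734, 0.0659 and 0.0581), and Pdgfrb in Apc did (adjusted p = 0.0436), with no other change of calls among the 40. Without mitochondrially encoded genes in the total, shares of counts moved by less than 1 SD in every group. Low counts limit Pi16, Lox, Foxl1 and Gli1.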
